A study of Mus musculus with 5 samples.

Results

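The genes of the cytosolic ribosome were followed here through 3 lists of ChIP-seq peaks in mouse embryonic stem cells (mESCs). The lists are those of REX1, its ubiquitin ligase RNF12 WT, and the inactive form RNF12(H569A,C572A), called RNF12 mutant below. Members were chosen by symbol from the protein-coding genes of GENCODE release M21, on the mouse genome build GRCm38, also called mm10. A symbol had to start with Rpl or Rps followed by a digit, or to be Rplp0, Rplp1, Rplp2 or Rpsa, and Rps6k kinase genes and pseudogenes were left out. This gave 86 members among 21938 protein-coding genes. By symbol, 46 encode proteins of the large subunit and 31 of the small subunit. A further 8 are paralogues with names of their own (Rpl3l, Rpl7l1, Rpl10l, Rpl22l1, Rpl36al, Rpl39l, Rps27l and Rps27rt), and 1, Rps19bp1, encodes a protein that binds RPS19 and is no subunit. Fau and Rack1 also encode parts of the cytosolic ribosome, but their symbols fall outside the rule, and they are given apart.

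All cells were female mESCs of strain 129/Sv-Cast/Ei, and V5 was the antibody target, with 1 library per list. The RNF12 libraries came from Rlim+/- cells that stably carried 2xFLAG-V5-RNF12, either WT or with the H569A and C572A changes that remove catalytic activity, driven by a pCAG vector, so 1 endogenous Rlim allele was still present beside the transgene. Those cells received the proteasome inhibitor MG132 at 15 μM for 3 h, and their chromatin was cross-linked with 2 mM disuccinimidyl glutarate and 1% formaldehyde. The REX1 cells are labelled WT with FLAG-V5-REX1; the paper describes REX1 occupancy as taken from earlier work, and whether the same treatment applied to them is not given in the sources used here. The 2 control libraries, labelled as WT cells with the V5 antibody, were not analysed here.

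Ribosomes are built from a fixed set of proteins on ribosomal RNA, and growing cells transcribe these genes strongly and in step. Their promoters are known for CpG-rich sequence, for start sites set within a run of pyrimidines that gives the messenger its 5′ terminal oligopyrimidine tract, and for sites of broadly acting factors such as SP1, GABPA and YY1. REX1, encoded by Zfp42, is a zinc finger protein related to YY1 and a marker of pluripotent cells. RNF12, encoded by Rlim, is an E3 ubiquitin ligase that marks REX1 for degradation.

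Sequences of named members are shown first, so that fixed strings of letters near the 5′ ends can be read beside the summits, a summit being the base of highest signal in a peak. All are from GRCm38 and read 5′ to 3′ on the strand of the gene. The REX1 string was ATGGC, then G or T, then A, C or G, then C. The YY1 core was AAGATGGC, which ends in the first 5 letters of the REX1 string, so that a site can match both. Both strands were searched, and capitals below mark the match. The first set holds named members in which the ATG of the string is an annotated start codon. It covers Rpl13a (chr7:45128699-45128728, minus strand), Rpl23a (chr11:78183526-78183555, minus strand), Rpl7l1 (chr17:46782617-46782646, minus strand) and Rps3 (chr7:99483606-99483635, minus strand), all exonic apart from 2 bases at the edge of the Rpl7l1 stretch.
Rpl13a: ggcggctgccgAAGATGGCggaggggcagg
Rpl23a: ttttcagccAAGATGGCGCCgaaagcgaag
Rpl7l1: gaagcaccggaAAGATGGCggaggaagggt
Rps3: cgcgcggctgcAAGATGGCggtgcagattt
In Rps3, a REX1 summit lay at base 3 of this stretch and an RNF12 WT summit at base 10. In Rpl13a, an RNF12 WT summit lay at base 30. The capitals of Rpl23a join a YY1 core and a REX1 string that overlap.

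The second set holds REX1 strings within 50 bp of a REX1 summit in members named below. It covers Rpl10l (chr12:66284345-66284374, minus strand, within its exon), Rpl10a (chr17:28328597-28328626, plus strand, exonic) and Rpl13a (chr7:45128978-45129007, minus strand, upstream of the gene and outside annotated exons).
Rpl10l: aggttcctgctGTCGCCATgggtcgtcgtc
Rpl10a: ccgcggcagccGCAGCCATgaggtaagttg
Rpl13a: tcccttcaaatATGGCGGCtgcggcttggc
The string was on the opposite strand in Rpl10l and Rpl10a, and on the strand of the gene in Rpl13a. Its middle lay 28 bp from a REX1 summit in Rpl10l, 11 bp in Rpl10a and 43 bp in Rpl13a. In the same order, it lay 11, 784 and 55 bp from an RNF12 WT summit and 0, 238 and 100 bp from an RNF12 mutant summit.

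The third set shows 120 bases that end just before a TSS (transcription start site, the 5′ end of an annotated transcript) in members whose nearest summit was upstream in all 3 lists. Capitals mark REX1 strings or the ETS core CCGGAAG on either strand. The stretches are those of Rpl34 (chr3:130730399-130730518, minus strand), Rpsa (chr9:120127569-120127688, plus strand) and Rps15 (chr10:80292333-80292452, plus strand).
Rpl34: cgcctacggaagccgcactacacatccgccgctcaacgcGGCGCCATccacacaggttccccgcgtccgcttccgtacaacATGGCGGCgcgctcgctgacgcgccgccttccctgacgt
Rpsa: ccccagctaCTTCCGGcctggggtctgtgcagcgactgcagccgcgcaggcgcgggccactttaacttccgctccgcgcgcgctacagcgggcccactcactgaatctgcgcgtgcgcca
Rps15: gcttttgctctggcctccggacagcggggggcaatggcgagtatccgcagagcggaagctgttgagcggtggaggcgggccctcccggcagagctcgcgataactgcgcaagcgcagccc
In Rpl34 the REX1, RNF12 WT and RNF12 mutant summits lay at bases 23, 46 and 60, around the first of its strings, and 59 of the 120 bases fall in exons of Gm42997, a long non-coding RNA gene. In Rpsa they lay at bases 112, 74 and 64. In Rps15 they lay at bases 44, 39 and 54, in a stretch with none of the REX1, YY1, ETS or SP strings searched here. The members thus had summits both beside such strings and away from them.

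Nearly every cytosolic ribosomal protein gene had a peak at its promoter. A gene was counted when a summit lay within 1000 bp of a TSS of any of its transcripts. In the REX1 list, 82 of 86 members were counted (95.3%, 95% Wilson interval 88.6% to 98.2%), against 66.9% of all protein-coding genes. In the RNF12 WT list the count was 81 (94.2%, 87.1% to 97.5%), against 68.3% of all. In the RNF12 mutant list it was 79 (91.9%, 84.1% to 96.0%), against 67.2% of all. These intervals cover counting over genes only. With 1 library per list there is no replicate error, and no test between the proteins is given.

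Other genes of translation had high shares as well. Of 78 genes for mitochondrial ribosomal proteins, 77 were counted for REX1, 75 for RNF12 WT and 73 for the RNF12 mutant. Of 58 translation factor genes the counts were 51, 54 and 55, and of 35 genes for ribosome assembly they were 34, 33 and 34. All 14 genes of a list of other messengers with a 5′ oligopyrimidine tract, such as Eef1a1 and Tpt1, were counted in each list. Promoters of the members were richer in CpG than those of all genes, with a median observed to expected ratio of 0.853 against 0.586 in the 250 bp on either side of the 5′ end, and the part of this composition in the counts was not tested.

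**Figure D1:**
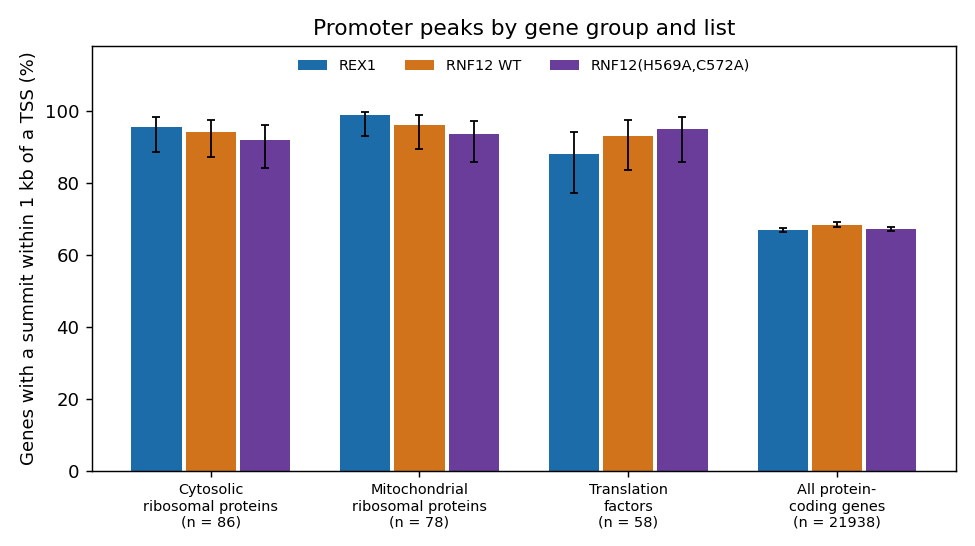
Share of genes (%) with a summit within 1 kb of a TSS, by gene group and list; bars are shares and error bars 95% Wilson intervals. Cytosolic ribosomal protein genes reach 95.3%, 94.2% and 91.9%, beside mitochondrial ribosomal protein genes and translation factor genes and above the 66.9%, 68.3% and 67.2% of all protein-coding genes.

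Taking the lists jointly, 74 members (86.0%) had a summit in all 3, against 60.2% of all genes, and no member lacked one in every list, against 25.7% of all genes. The 12 others are named here, after their values were seen, because they were absent from a list. Rpl36a, Rpl39, Rpl7l1 and Rps9 had summits for REX1 and RNF12 WT but not for the RNF12 mutant. Rpl17, Rpl29 and Rpl39l had summits for both RNF12 proteins but not for REX1. Rpl32 had summits for REX1 and the RNF12 mutant only. Rpl10, Rpl3l and Rps27rt had a summit in the REX1 list alone, and Rps26 in the RNF12 mutant list alone.

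Absence from a list did not always mean that the nearest peak was far. For RNF12 WT, the nearest summit lay 2994 bp upstream of a TSS of Rpl32. At Rpl3l, the paralogue of Rpl3 known from striated muscle, it lay in an exon inside the gene, 1708 bp from the nearest TSS. For the RNF12 mutant, it lay 1896 bp downstream at Rps9 and 2174 bp upstream at Rpl39. Rps26, whose protein lies near the exit site of the messenger, had its nearest REX1 summit 4938 bp and its nearest RNF12 WT summit 14368 bp upstream, and its RNF12 mutant summit 86 bp downstream of a TSS. At Rpl10, which encodes a protein of the large subunit needed for subunit joining, the REX1 summit was 3 bp downstream while the nearest RNF12 summits were 9803 and 9900 bp downstream.

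Members that were absent from the RNF12 mutant list included 3 of the 4 on the X chromosome, which also carries Rlim. Of Rpl10, Rpl36a, Rpl39 and Rps4x, all 4 had a REX1 summit, 3 an RNF12 WT summit and 1, Rps4x, an RNF12 mutant summit. Over all 948 protein-coding genes of this chromosome, the shares were 50.9%, 53.1% and 51.1%, which are close to each other. The difference rests on 4 genes in 1 library per list. In the RNF12 WT list, peaks at genes of chromosomes 10 and 12 were weaker, with median percentiles of 70.2 and 59.6 over all genes, against 81.9 over all genes outside chromosomes 10, 12 and X. Among the 74 members outside these 3 chromosomes, 71 had a summit for REX1, 71 for RNF12 WT and 70 for the RNF12 mutant, or 95.9%, 95.9% and 94.6%.

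Subunits and paralogues were counted by the same rule. Large-subunit genes had a summit in 44, 44 and 43 of 46 cases in the REX1, RNF12 WT and RNF12 mutant lists, and small-subunit genes in 30 of 31 cases in each list. Of the 8 paralogues, 7, 6 and 5 were counted, and 4 were in all 3 lists. Rps19bp1 was in all 3, as were the ribosomal genes outside the symbol rule, Fau (a ubiquitin-like protein fused to RPS30) and Rack1 (a scaffold protein on the small subunit).

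By fold enrichment, these peaks were about as strong as those of occupied promoters in general. Each member was given the peak with the highest fold enrichment within 1 kb of a TSS, and the percentile of that value among all peaks of its own list, because fold enrichments were not compared between lists. The median percentile of the members was 79.3 for REX1, 77.9 for RNF12 WT and 79.8 for the RNF12 mutant. Over all protein-coding genes with a summit the medians were 77.5, 81.0 and 79.8. Mitochondrial ribosomal protein genes reached 89.7, 89.1 and 84.3, and translation factor genes 89.5, 89.5 and 85.2. Among the members with a summit, 22, 23 and 9 were in the highest 10% of their list, or 26.8%, 28.4% and 11.4%, against 28.0%, 34.1% and 21.4% of all genes with a summit. Ranked by −log10 q instead, the members' medians were 86.1, 86.3 and 76.2, against 79.9, 84.2 and 76.7 over all genes, so that the REX1 peaks of members then stood higher.

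**Figure D2:**
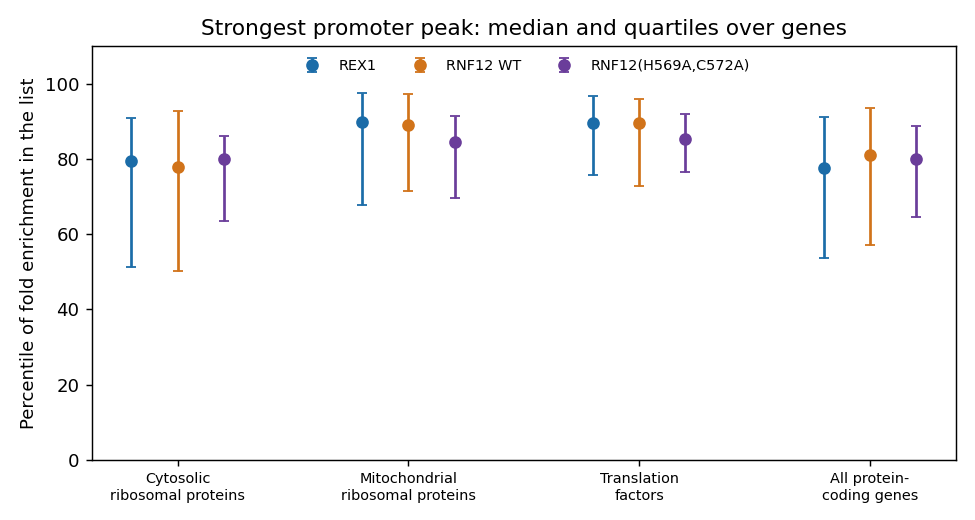
Percentile of fold enrichment of the strongest promoter peak in its own list, by gene group; points are medians over genes with a summit and lines run from the lower to the upper quartile. The members' medians (79.3, 77.9 and 79.8) lie by those of all protein-coding genes and below those of mitochondrial ribosomal protein and translation factor genes.

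Members spread widely within each list, from the 0.349th to the 99.7th percentile for REX1, the 5.39th to the 99.5th for RNF12 WT and the 11.5th to the 96.2nd for the RNF12 mutant. For REX1 the strongest peaks were at Rpl10l and Rpl13a. Rpl10l, an intronless autosomal copy of the X-linked Rpl10 known from the male germ line, had an 18.3-fold enrichment at a summit 13 bp downstream of its TSS, in the 99.7th percentile. Rpl13a, whose introns host several snoRNAs, had a 17.6-fold enrichment in the 99.6th percentile, at an offset of -275 bp from a TSS, where negative offsets are upstream. Rpl7l1 (11.1-fold), Rpl5 (10.8-fold) and Rpl15 (10.6-fold) followed. In the other lists Rpl10l was weaker in rank, in the 88.7th percentile for RNF12 WT and the 73.8th for the RNF12 mutant. Rpl5 encodes a protein that, with RPL11 and 5S rRNA, can bind the ubiquitin ligase MDM2. At the other end, Rpl24, named like Rpl31, Rps29 and Rpl8 after its value was seen, had a 2.19-fold enrichment in the 0.349th percentile for REX1 but was in the 95.7th for RNF12 WT.

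For RNF12 WT the strongest member was again Rpl13a, with a 10.4-fold enrichment in the 99.5th percentile at an offset of -287 bp. In the RNF12 mutant list it was in the 89.0th percentile. Rpl23a (9.84-fold), Rpl21 (9.34-fold), Rpl34 (9.32-fold) and Rpl23 (8.84-fold) came next. All 5 encode proteins of the large subunit. The weakest was Rpl31, with a 2.85-fold enrichment at a summit whose 36 bases occur 2 times in the genome.

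For the RNF12 mutant the strongest member was Rpl10a, with a 21.3-fold enrichment in the 96.2nd percentile. The 36 bases at that summit occur 3 times in the genome, so a read of just these bases cannot be placed uniquely. Other reads of the peak were not examined. Rpl34 (21.005-fold), Rpl36al (20.7-fold), Rps15 (18.7-fold) and Rpl14 (18.02-fold) followed, all with 36-base summit words found once. Rps29 was the weakest, with a 4.50-fold enrichment and a word found 3 times.

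The same member could stand high in 1 list and low in another. Rpl10a was in the 42.8th percentile for REX1, the 28.5th for RNF12 WT and the 96.2nd for the RNF12 mutant. Rps15, part of the decoding region of the small subunit, was the only member at or above the 90th percentile in every list, with 96.2, 93.2 and 94.1. Of the 74 members in all lists, 17 were at or above the 75th percentile in each, 1 (Rpl8) was below the 50th in each, and 8 were at or above the 90th in 1 list and below the 50th in another. The same was not counted over all genes, so these counts do not set the members apart from other promoters.

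The stalk of the large subunit, which recruits translation factors, is built on RPLP0 with RPLP1 and RPLP2. All 3 genes had summits in every list. Rplp0 was in the 89.5th, 79.9th and 79.2nd percentile for REX1, RNF12 WT and RNF12 mutant, Rplp1 in the 73.5th, 27.6th and 41.5th, and Rplp2 in the 93.3rd, 41.8th and 83.1st. Rpsa, the small-subunit protein also known as the laminin receptor, was in the 88.3rd, 93.1st and 84.7th. Rps19bp1 was in the 93.5th, 77.9th and 71.7th. Within a list the percentiles of the stalk genes thus lay far apart for RNF12 WT and the RNF12 mutant.

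Of the genes outside the symbol rule, Fau was in the 89.6th, 98.1st and 92.2nd percentile and Rack1 in the 83.1st, 92.2nd and 78.3rd. By class, the median percentiles of large-subunit genes were 80.4, 76.4 and 81.8, and those of small-subunit genes 71.5, 74.5 and 78.4. The few paralogues had 90.7, 88.4 and 78.8.

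The summits sat close to annotated starts, but how close depended on which starts were used. From the nearest TSS of any transcript, the median distance of the nearest summit was 33.5 bp (REX1), 47 bp (RNF12 WT) and 73 bp (RNF12 mutant), against 59, 63 and 66 bp over all genes with a summit. Within 50 bp lay 48 (58.5%), 41 (50.6%) and 29 (36.7%) of the members, against 45.7%, 43.7% and 42.5% of all. The members had a median of 6 annotated TSSs and all genes a median of 3, and the part of this number in the distances was not tested. When each gene was held to the TSS of 1 principal transcript, the medians were 87, 131 and 147 bp for the members and 110, 119 and 123 bp for all genes. For RNF12 WT the members were thus nearer than all genes by the first measure and farther by the second, and for REX1 they were nearer by both.

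The size of the signed offset also depended on the start, while its median was downstream in every list by both measures. From the principal TSS, the median offset of the members' nearest summit was 51 bp downstream in the REX1 list, 111 bp in the RNF12 WT list and 115 bp in the RNF12 mutant list. Over all genes it was 52, 53 and 60 bp downstream. For RNF12 WT, 62 of 79 members (78.5%) had this summit downstream, against 62.7% of all genes, and for REX1 52 of 81 (64.2%), against 65.4%. From the nearest TSS of any transcript the members' median offsets were 2, 16 and 42 bp downstream, and those of all genes 14, 11 and 12 bp.

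**Figure D3:**
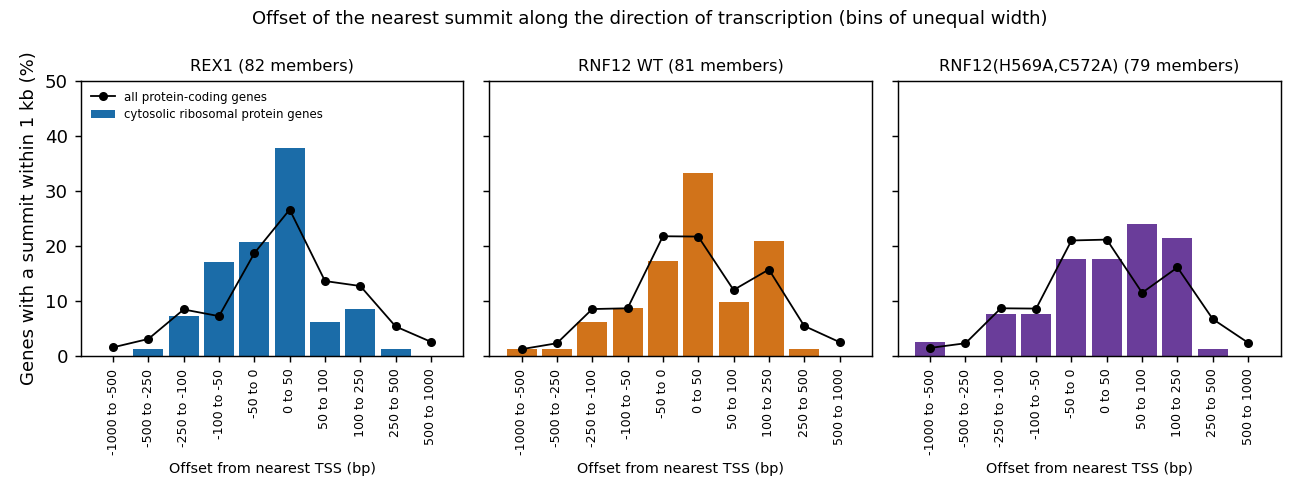
Offset (bp) of the nearest summit from the nearest TSS along the direction of transcription, as the share (%) of genes with a summit within 1 kb, in bins of unequal width; bars are the 82, 81 and 79 members and black points all protein-coding genes. The tallest bar is 0 to 50 bp for REX1 (37.8%) and RNF12 WT (33.3%), and 50 to 100 bp for the RNF12 mutant (24.1%).

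Among single members, Rpl41 and Rps3 had a summit within 10 bp of a TSS in all 3 lists. At Rpl41, which encodes the shortest ribosomal protein, the offsets were 2 bp for REX1 and 1 bp for either form of RNF12. At Rps3, part of the entry channel of the messenger, they were 1, 8 and 4 bp, and the YY1 core shown above lay 12, 5 and 25 bp from a summit. The strongest promoter peak of Rps3 was in the 31.9th, 50.1st and 45.5th percentile. In the 74 members in all lists, the nearest summit was upstream in all 3 lists for 11 and downstream in all 3 for 22. The matching shares of all genes were not counted.

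REX1 and RNF12 WT peaks mostly fell on the same promoter stretch. The labels list an input library for each of these proteins. Of 78 members with both, 76 (97.4%) had REX1 and RNF12 WT peaks that overlapped by at least 1 bp, against 93.7% of all genes with both. The median gap between the closest REX1 and RNF12 WT summits was 42.5 bp, against 44 bp over all genes. Both values are close to those of other promoters.

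Promoter strings were then counted in the reference within 250 bp of the 5′ end of each gene. The REX1 string was found in 30 members (34.9%), against 13.8% of all genes and 44.9% of mitochondrial ribosomal protein genes. The YY1 core was found in 12 (13.95%, against 4.82%), and the ETS core in 31 (36.05%, against 14.5%). GGGCGG, the core bound by SP and KLF factors, was found in 61 (70.9%, against 52.6%), and TATAA in 31 (36.05%, against 29.1%). In mitochondrial ribosomal protein genes the YY1 core was found in 17.9%, the ETS core in 47.4%, GGGCGG in 61.5% and TATAA in 19.2%. A match is only a string of letters. Median GC was 58.5% for members and 57.1% for all genes, and the part of base composition in these counts was not tested.

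Messengers of these genes usually start within a run of pyrimidines. The string searched on the strand of the gene was 7 pyrimidines of which the second is a C, with that C within 25 bp of the 5′ end, and it may lie inside a longer run. It was found in 39 members (45.3%), against 24.5% of all genes and 19.2% of mitochondrial ribosomal protein genes. Capitals run from the first base of the match to the last base of the run, and pyrimidines before the match are in lower case. The match is shown for 4 of the named members in which it lies downstream of the annotated 5′ end, as examples from both subunits and the stalk: Rpl5 (chr5:107900495-107900524, plus strand), Rplp1 (chr9:61914525-61914554, minus strand), Rps15 (chr10:80292444-80292473, plus strand) and Rpsa (chr9:120127698-120127727, plus strand).
Rpl5: aggcctacagccacTCTTTCTCacgtcgct
Rplp1: gcaggcgtatatgaTCTTTTCCTCagctgc
Rps15: gcgcagcccgtactTCCTTTTCCgagtaac
Rpsa: tccggagcggaagtTCTCCCTTTTTgctta
No summit of any list fell within these 4 windows.

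**Figure D4:**
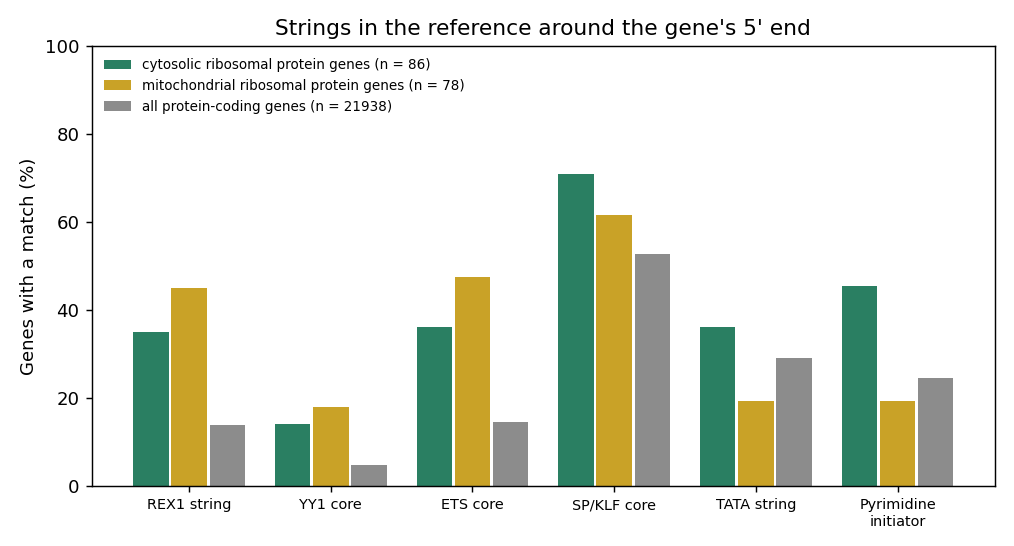
Share of genes (%) with each string in the reference within 250 bp of the 5′ end on either strand (pyrimidine initiator: sense strand, within 25 bp), for 86 cytosolic and 78 mitochondrial ribosomal protein genes and all 21938 protein-coding genes. The pyrimidine initiator is found in 45.3% of the cytosolic against 19.2% of the mitochondrial group, whereas the REX1 string is found in 34.9% against 44.9%.

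Near the summits, the REX1 string was again more frequent than over all genes. Within 50 bp of the nearest REX1 summit it was found in 21 of 82 members (25.6%), against 12.7% of all genes with a REX1 summit and 46.8% of mitochondrial ribosomal protein genes. For RNF12 WT the count was 15 of 81 (18.5%), against 6.31% of all genes and 26.7% of mitochondrial ribosomal protein genes. For the RNF12 mutant it was 10 of 79 (12.7%), against 6.29% and 24.7%. Of 39 matches to the REX1 string near the 5′ ends of members, 17 were on the strand of the gene and 3 had their ATG at an annotated start codon. Of 13 YY1 cores, 7 were on the strand of the gene and 5 were at a start codon. The median REX1 percentile was 80.9 with and 75.9 without a REX1 string near the 5′ end for members, and 87.5 with and 75.2 without it for all genes. In the RNF12 WT list these medians were 86.8 and 74.4 for members, and 84.7 and 80.5 for all genes. In the RNF12 mutant list the members went the other way, with 74.7 and 81.6, while all genes had 82.7 and 79.1.

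Peaks inside the members, over 1 kb from every TSS, were few, and these genes are short (median 3328.5 bp, against 17425 bp for all genes). There were 12, 11 and 11 members with such a summit (13.95%, 12.8% and 12.8%), against 45.0%, 47.7% and 45.9% of all genes. Of these summits, 8 of 16 lay in exons for REX1, 10 of 14 for RNF12 WT and 11 of 13 for the RNF12 mutant. Over all genes, 22.3%, 32.1% and 25.9% of such summits were exonic. How much of the gene bodies is exon was not measured in either group, so these shares do not show a preference for exons.

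Rps14, Rps15, Rpl34 and Rps28 were among the members with the most of these summits. In Rps15 no REX1 summit, 2 RNF12 WT summits and 2 RNF12 mutant summits lay in exons, 1019 and 1391 bp and 1051 and 1358 bp from the nearest TSS, and 3 of the 4 summit words occurred more than once in the genome. In Rpl34 an exonic summit 1387 bp from the TSS was at the same base for REX1 and RNF12 WT, with a word that occurs 3 times. The RNF12 mutant summit was also exonic, 1326 bp from the TSS, with a word that occurs once.

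Processed pseudogenes, copied into the genome from spliced messengers, share those exons. Of 290 processed pseudogenes with ribosomal protein symbols, 27 (9.31%, interval 6.48% to 13.2%) held a REX1 summit, 44 (15.2%, 11.5% to 19.8%) an RNF12 WT summit and 77 (26.6%, 21.8% to 31.9%) an RNF12 mutant summit. Over all 10236 processed pseudogenes the shares were 5.84%, 7.24% and 9.74%. The summit word occurred once in 14 of 31, 11 of 49 and 16 of 88 of the summits at ribosomal protein pseudogenes. Over all processed pseudogenes it occurred once in 454 of 727, 495 of 883 and 425 of 1294. Only the word at the summit was counted, and other reads of these peaks were not examined. At the promoters of the members, in contrast, the word at the strongest summit mostly occurred once. This held in 79 of 82 cases for REX1, 75 of 81 for RNF12 WT and 72 of 79 for the RNF12 mutant. Over all protein-coding genes with a summit, it held in 14238 of 14679, 14483 of 14993 and 13831 of 14742. The members' shares were thus slightly below those of all genes, and single-copy words do not set their promoters apart. In the RNF12 mutant list as a whole, 49.5% of summit words occurred once, against 85.5% for REX1 and 84.8% for RNF12 WT. The part of multiply placed reads in these counts was not tested.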

How the data were processed

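The deposited data are 3 MACS2 narrowPeak lists, each from 1 library, with 96050 (REX1), 97602 (RNF12 WT) and 98124 peaks (RNF12 mutant). Per the labels and the study's methods, the authors trimmed reads with Trim Galore 0.6.7, aligned them with Bowtie2 2.5.0 to mm10 with N at the strains' SNPs, merged the allele files with SAMtools 1.10 and called peaks with MACS2 2.2.7.1. The deposited fold enrichment is a ratio of signal to control at the summit. The deposited −log10 p-value and −log10 q-value come from MACS2, and the deposited score was not used. Read depth is unknown, and which control stands behind each list was not settled, so values were ranked within a list only.

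Summits were assigned to TSSs of GENCODE M21 on chromosomes 1 to 19, X and Y. Intervals are 95% Wilson intervals. Words of 36 bases, the read length, were counted on both strands of GRCm38. The RefSeq promoter table matched 66 of 86 members and 16538 genes in all. Named genes are the 5 highest members by fold enrichment in each list, members in no list or in 1 list, up to 5 within 10 bp of a TSS in all lists, the 5 with most summits in the gene body, the stalk genes, Rpsa, Rps19bp1, Fau and Rack1. Values of some genes under this rule are not reported here, but they stay in the counts. Members and lists were chosen with earlier results of these data known. The principal transcript is the one tagged APPRIS principal, or else a protein-coding one, with the lowest number where several qualified. Steps were tested on simulated data. Software was scipy 1.17.1, pandas 2.3.3 and numpy 2.4.6 under Python 3.11.15.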

Additional observations from a re-analysis of the deposited data

How the results depend on the processing

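Of 70 alternatives, 48 stayed within the interval of the reported value, or within 1.5 times a count, and 22 did not. With only peaks at −log10 q of at least 5, the share of members with a summit was 87.2%, 83.7% and 91.9% in the REX1, RNF12 WT and RNF12 mutant lists, against 56.8%, 55.7% and 64.8% of all genes. With only the 20000 peaks of highest −log10 q, it was 61.6%, 58.1% and 36.05%, against 35.0%, 40.0% and 28.1% of all genes, and 19 members were in all 3 lists, as were 14.2% of all genes. The median distance of the nearest summit rose to 109, 137 and 161 bp from the 5′ end of the gene, to 87, 131 and 147 bp from the principal TSS (an alternative chosen after seeing the data), and to 75 bp for REX1 and 86 bp for RNF12 WT for the strongest peak. Over all genes it was 116, 124 and 131 bp from the 5′ end, 110, 119 and 123 bp from the principal TSS, and 116 and 132 bp for the strongest peak. The median percentile was 86.1 for REX1 and 86.3 for RNF12 WT by −log10 q (all genes 79.9 and 84.2), 66.8 and 60.8 for the nearest peak (all genes 63.6 and 64.7), and 71.1 for the RNF12 mutant among promoter peaks (all genes 71.1). The share with the REX1 string was 12.8% within 100 bp (all genes 6.93%), 15.2% in RefSeq promoters (all genes 8.57%), and 13.95% for the YY1 core in its place (all genes 4.82%). No paired analysis was possible because each list is 1 library without a replicate number. Distances of 250 bp and 3000 bp, overlap by any base and unique summit words kept every share of members within its interval. So did subunit proteins alone and the nearest gene alone. Across these settings the count in all 3 lists ran from 66 to 77, where the main count was 74. With −log10 q of at least 5 it was 61, which the wide limit of 1.5 times a count still allows. Beyond the smaller peak sets and changed windows themselves, the cause was not tested. Depth limits are unknown because the lists hold no read totals.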

Other observations

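More than 1 peak within 1 kb of a TSS was found at 46 members for REX1, 45 for RNF12 WT and 44 for the RNF12 mutant, or 56.1%, 55.6% and 55.7% of members with a summit, against 64.8%, 67.6% and 51.6% of all genes with a summit. The members with most peaks, named after their values were seen, were Rpl13a, Rpl18, Rps14 and Rps18 with 5 each for REX1, Rpl18 with 8 for RNF12 WT and Rps2 with 5 for the RNF12 mutant.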
